A study of Homo sapiens with 2 samples.

Results

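The BCL11B locus was described as the accessible regions called in a window of 1.75 Mb on chromosome 14, positions 98200000 to 99950000 of hg19, that holds BCL11B (positions 99635625 to 99737822, minus strand) and the gene desert past its end. A peak belonged to the locus when its summit lay in the window, which gave 13 of 24603 peaks in RPMI-8402 and 17 of 25189 in Jurkat on chromosomes 1 to 22, X and Y. Both are established human lines derived from T-ALL (T-cell acute lymphoblastic leukaemia, which arises in T-cell precursors), so they stand for leukaemic cells and not for normal thymocytes. Both were kept in RPMI-1640 with tetracycline-free serum, and the labels name no treatment. Each line had 1 ATAC-seq library, an assay in which the Tn5 transposase cuts and tags open DNA, so no value carries a replicate error, no difference between the lines was tested, and each difference is one between 2 libraries.

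BCL11B is a zinc-finger transcription factor that developing T cells switch on when they commit to the T lineage, and it holds down the genes of other fates. Its promoter works together with distal enhancers in the desert past the gene, where mouse T-cell progenitors also transcribe a non-coding RNA, ThymoD. In T-ALL the same desert is known from rearrangements that bring TLX3 or NKX2-5 near it, and BCL11B itself is mutated or deleted in some cases.

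The proximal promoter is shown because 1 of the shared peaks lies within 1 kb of the gene start, though whether the printed bases lie under that peak was not analysed, as the builds and the annotated starts differ. The 250 bases before the RefSeq start of BCL11B lie at chr14:99272198-99272447 on the minus strand of GRCh38.p14, a later build than that of the peaks, and are printed 5′ to 3′ in the direction of transcription. Capitals mark the E boxes, CANNTG, the letters bound by basic helix-loop-helix factors.

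BCL11B: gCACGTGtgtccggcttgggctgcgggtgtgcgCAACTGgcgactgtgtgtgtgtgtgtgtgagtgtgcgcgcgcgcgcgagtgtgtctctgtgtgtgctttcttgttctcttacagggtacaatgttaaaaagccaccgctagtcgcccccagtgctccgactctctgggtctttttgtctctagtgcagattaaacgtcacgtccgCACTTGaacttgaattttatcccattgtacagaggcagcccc

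The 3 E boxes begin 249, 217 and 42 bases before the start, and 61.8% of 35116 RefSeq promoters of the same length hold at least 1 on either strand. Other motifs were searched on both strands. The RUNX letters TGTGGT had 0 matches, where 10.98% of promoters hold them. The GATA letters AGATAA had 0 matches, where 9.17% of promoters hold them. For ETS factors CCGGAA was searched, with 0 matches here and 14.5% of promoters holding it. For TCF and LEF factors CTTTGA was searched, with 0 matches here and 11.2% of promoters holding it. The stretch has 17 CpG dinucleotides, against a median of 11 over all promoters, and a GC content of 54.8%, against 58%. These are matches of letters in a reference sequence and say nothing of the factors. No sequence of the other regions is shown, as hg19 sequence was not used here.

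Locus peaks were about as dense as peaks elsewhere. RPMI-8402 had 7.43 peaks per Mb of the window (95% exact Poisson interval 3.96 to 12.7), against 8.53 per Mb over chromosome 14. Jurkat had 9.71 per Mb (5.66 to 15.6), against 8.60 over chromosome 14. The summit pileup, the depth of fragments stacked at a peak's top base, had a median of 37 in RPMI-8402 locus peaks and 28 in Jurkat locus peaks, where the medians of the whole lists were 38 in RPMI-8402 and 37 in Jurkat. In RPMI-8402, 5 of the 13 locus peaks exceeded the median of their list, where 12061 of all 24603 peaks did. In Jurkat, 7 of the 17 did, where 12414 of all 25189 did. The RPMI-8402 library held 1.04 times as many fragments as the Jurkat library, an estimate from the genome-wide backgrounds and mean fragment lengths. All intervals here cover counting error only and would be too narrow if the fragments include PCR copies. Those of summit pileups and their ratios also make no allowance for the summit being the top base of a called peak.

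Of the locus peaks, 4 of 13 in RPMI-8402 overlapped no Jurkat peak, where 31.9% of all RPMI-8402 peaks did so. In Jurkat, 8 of 17 overlapped no RPMI-8402 peak, where 32.6% of all Jurkat peaks did so. The share that overlapped was 69.2% in RPMI-8402 (exact binomial interval 38.6 to 90.9%) and 52.9% in Jurkat (27.8 to 77.0%), and both intervals include the shares over the whole lists, 68.1% in RPMI-8402 and 67.4% in Jurkat. Merged, the lists made 21 regions in the window: 4 found only in RPMI-8402 (19.05%), 8 only in Jurkat (38.1%) and 9 shared (42.9%). Of all 32792 merged regions of the genome, 23.93% were found only in RPMI-8402, 25.01% only in Jurkat and 51.1% were shared. With so few regions in the window, the departure from the genome rests on small counts, and it was not tested. Of the 9 shared regions, 2 lay before the gene start, 7 lay in the desert over 500 kb past the gene end, and 0 lay in the gene body or the nearer desert.

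**Figure D1:**
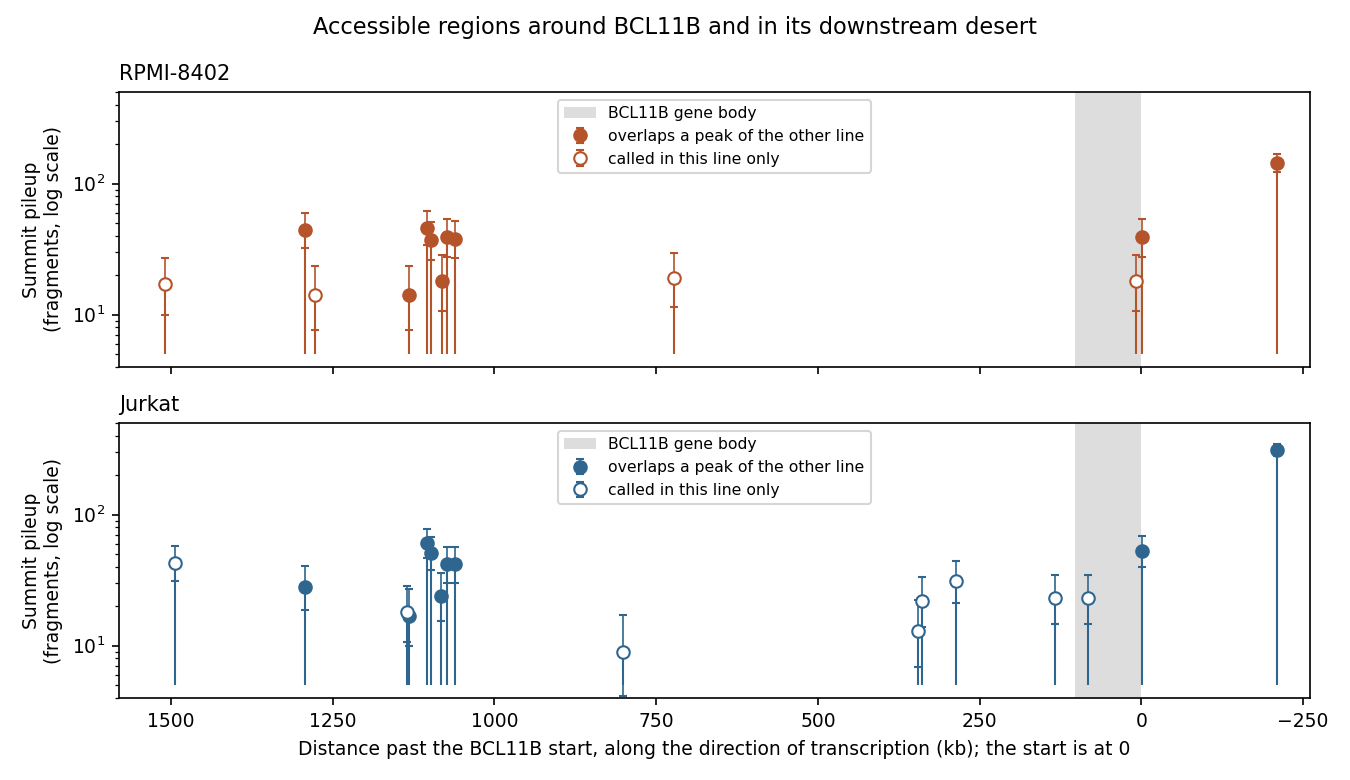
Summit pileup in fragments (log axis) of every locus peak against its distance in kb past the BCL11B start, RPMI-8402 above and Jurkat below. Filled points overlap a peak of the other line, open points do not, and bars are exact 95% Poisson intervals. A group of filled points stands between 1061.0 and 1132.4 kb in both lines, while the open points between 82.0 and 345.2 kb are in Jurkat.

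At the BCL11B start both lines had 1 peak. The RPMI-8402 peak lay at positions 99738372 to 99738747 with its summit 704 bp before the start as given above, and the Jurkat peak at positions 99738341 to 99738902 with its summit 804 bp before it. RefSeq gives BCL11B a length of 102911 bp on GRCh38.p14, 713 bp more than the bounds used here, and at which end the annotation is longer was not analysed. The summit pileup was 39 fragments in RPMI-8402 (27.7 to 53.3) and 53 in Jurkat (39.7 to 69.3). Relative to the median of all 16494 pairs of overlapping peaks, the RPMI-8402 to Jurkat ratio was 0.828 (exact conditional binomial interval 0.533 to 1.28), which includes 1. Scaled by the genome-wide background instead, under which the median pair of the genome sits at -0.47 on the log2 scale, it was 0.597 (0.385 to 0.920), which lies below 1. Both peaks were of middling height, at or above 52.1% of RPMI-8402 peaks and 62.5% of Jurkat peaks.

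The peaks at the start differed in width and in fold. The authors' fold enrichment over the local background was 4.04 in RPMI-8402 and 8.10 in Jurkat. Relative to the median of all pairs this is a log2 ratio of -0.76, and 1.27% of pairs had a lower one. The peak was 376 bp wide in RPMI-8402 and 562 bp in Jurkat, a width ratio of 0.669, and 4.95% of pairs had a lower one. The local background, read as the fragment ends within 10 kb around the summit, held 576 ends in RPMI-8402 and 434 in Jurkat. Scaled to all pairs, that ratio was 1.49 (1.24 to 1.78). The summit pileup was thus lower in RPMI-8402, within counting error when centred on all pairs, while the 10 kb around it held more fragment ends there than in Jurkat. Among pairs with such a value, 15.1% had a higher ratio of ends.

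The body of BCL11B held 1 peak in each line, at different places. The RPMI-8402 peak, at positions 99728813 to 99729506, lay 8.9 kb past the start and had a pileup of 18 (10.7 to 28.4), with no Jurkat peak within 8.8 kb. The Jurkat peak, at positions 99655568 to 99656300, lay 82.0 kb past the start and had a pileup of 23 (14.6 to 34.5), with no RPMI-8402 peak within 72.5 kb. Neither reached a −log10 q of 10, and whether they lie in exons or introns was not analysed here.

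Jurkat alone had peaks in the 500 kb past the gene end. RPMI-8402 had 0 there, against 4 in Jurkat. The strongest Jurkat peak, at positions 99450885 to 99451563, lay 184.4 kb past the end, was 31 fragments high (21.1 to 44.0) and was enriched 8.10-fold. The peak nearest to the gene, at positions 99604262 to 99604848, lay 31.0 kb past the end and had a pileup of 23. The other two, at positions 99392592 to 99392962 and 99398217 to 99398488, lay 243.0 and 237.2 kb past the end and had pileups of 13 and 22. Together with the Jurkat peak in the gene body they formed a run of 5 consecutive regions called only in Jurkat, over 263.7 kb. The genome held 85 Jurkat-only runs of at least 5 regions and 138 RPMI-8402-only ones.

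Peaks as low as these were often missing from the other list. Jurkat peaks within 1.2-fold of each of these 5 pileups overlapped a RPMI-8402 peak in 25.8% to 61.6% of cases over the genome. If the signal were equal after scaling, the 5 regions would have 11.6 to 27.6 fragments in RPMI-8402, where the lowest called pileup was 10. For 4 of the 5, that value is at or above 19.4% to 36.3% of called RPMI-8402 pileups, and for the weakest it is at or above 0.894%. What pileup RPMI-8402 has there is not known from a list of called peaks. At a −log10 q of at least 10, 2 of the 4 Jurkat peaks past the gene end remained. In RPMI-8402 the stretch without a peak ran for 713.7 kb, from position 99015128 to position 99728813, which takes in the nearer desert and most of the gene. The longest such stretch in Jurkat was 456.6 kb, and in the merged lists 377.5 kb.

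The densest group of the window lay far out in the desert, 0.958 to 1.03 Mb past the gene end. It spanned 74.9 kb (positions 98602285 to 98677151), 4.28% of the window, and held 6 of the 13 RPMI-8402 peaks (46.2%) and 7 of the 17 Jurkat peaks (41.2%). Its bounds were drawn after the values were seen. Of its 7 regions, 6 were called in both lines, where 51.1% of all merged regions of the genome were. With bounds drawn on these same calls, the 2 shares cannot be compared. The exception, at positions 98602285 to 98602651, was a Jurkat peak of 18 fragments, 2.4 kb from the nearest RPMI-8402 peak.

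The tallest peak of the group lay 1103.7 kb past the start in RPMI-8402, at positions 98633872 to 98634343, and was 46 fragments high there (33.7 to 61.4) against 61 in Jurkat (46.7 to 78.4). The next region, at 1097.9 kb, had 37 fragments in RPMI-8402 and 51 in Jurkat. The peak at the gene start, with 39 fragments in RPMI-8402 and 53 in Jurkat, lay between these 2 regions in each line. The regions at 1073.0 and 1061.0 kb had 39 and 38 fragments in RPMI-8402 and 42 each in Jurkat. The weakest shared ones, at 1081.9 and 1132.4 kb, had 18 and 14 fragments in RPMI-8402 and 24 and 17 in Jurkat. In both lines the region at 1103.7 kb was the highest of the 6 and the one at 1132.4 kb the lowest.

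**Figure D2:**
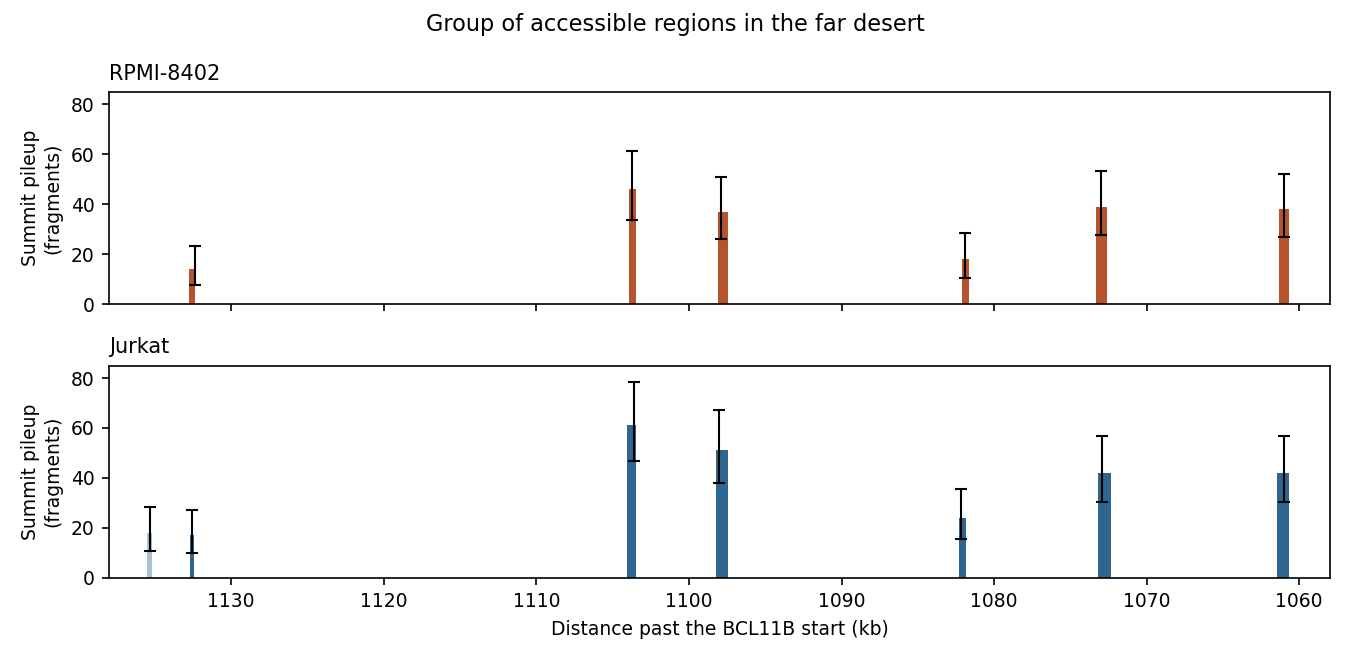
Peaks of the group in the far desert, RPMI-8402 above and Jurkat below, as bars with the width of the peak in kb from the BCL11B start and the height of its summit pileup in fragments. Black bars are exact 95% Poisson intervals, and the pale bar is called in Jurkat only. Each of the 6 shared peaks overlaps its counterpart in the other line, with pileups of 14 to 46 in RPMI-8402 and 17 to 61 in Jurkat.

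Summed over these 6 pairs, the pileups were 192 in RPMI-8402 and 237 in Jurkat, a ratio of 0.911 (0.749 to 1.11) when centred on all pairs. Each single ratio lay between 0.816 and 1.04, with an interval that includes 1. Scaled by the genome-wide background instead, the summed ratio was 0.658 (0.541 to 0.799), an interval that includes the 0.701 of all pairs so scaled. Pairs in the 5 Mb below the window had 0.608 and those in the 5 Mb above it 0.516. With this scaling the intervals of the regions at 1103.7 kb (0.408 to 0.912) and 1097.9 kb (0.375 to 0.917) also lay below 1. Both include the 0.701 of all pairs. Summits of the pairs lay a median of 69 bp apart, against 67 bp over all pairs, and as far as 344 bp at 1081.9 kb and 232 bp at 1132.4 kb. The peaks were narrower in RPMI-8402 in 5 of the 6 pairs, where 42.8% of all pairs were. Fragment ends in 10 kb were lower in RPMI-8402 in 6 of 6 after scaling, with a median log2 ratio of -0.31, where 7679 of all 15358 pairs with such a value, 81.2% of those in the 5 Mb above the window and 72.0% of those in the 5 Mb below it were lower. The lowest ratio of ends, 0.618 (0.462 to 0.807), was at 1081.9 kb, with 165 ends in RPMI-8402 and 299 in Jurkat. The 10-kb windows of the regions at 1103.7 and 1097.9 kb overlap, as do those at 1081.9 and 1073.0 kb, so the 6 values are not separate measurements. Joining regions at most 12500 bp apart gave 1 cluster of at least 3 regions in the whole window, with 3 regions over 21.7 kb inside this group. At 25 kb it held 5 regions over 43.4 kb, and with peaks at a −log10 q of at least 10 there were 0 clusters.

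The far desert also held regions outside this group. As the group's bounds were drawn after the values were seen, the regions inside and outside it were not compared. The region at 1293.1 kb past the start was the one shared desert region whose centred ratio had an interval above 1. Its peak at positions 98444040 to 98445039 had 44 fragments at its summit in RPMI-8402 (32.0 to 59.1), and its counterpart at positions 98444060 to 98444922 had 28 in Jurkat (18.6 to 40.5). The centred ratio was 1.77 (1.08 to 2.95), and 12.95% of all pairs had a higher one. Scaled by the genome-wide background it was 1.28 (0.776 to 2.13), which includes 1. Its summits lay 403 bp apart, the widest distance of the 9 pairs. The 10-kb ends were 270 in RPMI-8402 and 260 in Jurkat, a scaled ratio of 1.16 (0.907 to 1.49).

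Line-only peaks of the far desert were weak with 1 exception. RPMI-8402 alone had peaks at positions 98228851 to 98229220, 98460424 to 98460758 and 99014690 to 99015128, with pileups of 17, 14 and 19. Jurkat alone had a peak at positions 98243332 to 98244108, 43 fragments high (31.1 to 57.9) and enriched 8.33-fold. It was the strongest line-only peak of the window, its nearest RPMI-8402 peak was 14.1 kb away, and 76.9% of Jurkat peaks of like pileup overlapped a RPMI-8402 peak. At the other extreme, the Jurkat peak at positions 98935706 to 98936036 had a pileup of 9, the lowest of that list.

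The highest peak of the window lay 209.6 kb before the start of BCL11B, 2.5 kb inside the edge of the window. Its pileup was 144 (121 to 170) in RPMI-8402 and 313 (279 to 350) in Jurkat, at or above 94.2% of RPMI-8402 peaks and 99.2% of Jurkat peaks. The scaled ratio was 0.518 (0.422 to 0.632), and 5.80% of pairs had a lower one. The 10-kb ends were 925 in RPMI-8402 and 1660 in Jurkat. They include the ends of the peak's own fragments, so they are no separate support for the lower ratio. Pairs in the 5 Mb beyond this edge had a median log2 ratio of -0.53 (49 pairs), and those in the 5 Mb below the window one of -0.07 (27 pairs), so the low ratio at this peak lay beside a stretch of low ratios. In the order of RefSeq genes the coding neighbours before the start of BCL11B are SETD3, a histidine methyltransferase, and CCNK, a cyclin of transcriptional kinases. Whether this peak lies at either or both of them was not analysed here. Past the end of BCL11B the next coding gene is VRK1, a kinase, with 27 other entries between them, 24 of which are long non-coding RNAs.

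The first peaks outside lay 9.4 kb below the window in RPMI-8402 (pileup 16) and 9.2 kb below it in Jurkat (18), and 77.9 kb above it in RPMI-8402 (17) and 120.9 kb above it in Jurkat (154). Just inside, the first peaks lay 29.0 kb from the lower edge in RPMI-8402 (17) and 43.6 kb in Jurkat (43). The last ones lay 2.5 kb from the upper edge in both lines and were the highest of the window, 144 in RPMI-8402 and 313 in Jurkat.

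Taking the 9 shared regions together, 0 were at least 2-fold higher in RPMI-8402, where 9.21% of all pairs were, and 0 were at least 2-fold higher in Jurkat, where 4.89% were. Without scaling, or with scaling by the genome-wide background, the peak 209.6 kb before the start passed 2-fold in favour of Jurkat. The median log2 ratio of the 9 pairs was -0.24, with 6 on the side of Jurkat and 3 on that of RPMI-8402. Over all pairs the centring sets these sides near even, 8225 for Jurkat and 8238 for RPMI-8402. They were 41 and 8 in the 5 Mb above the window, and 16 and 10 in the 5 Mb below it. The sign of the median of the 9 pairs changed with the scaling: centring on the pairs within 5 Mb of the window gave 0.16, and the deposited fold in place of the pileup gave 0.17.

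**Figure D3:**
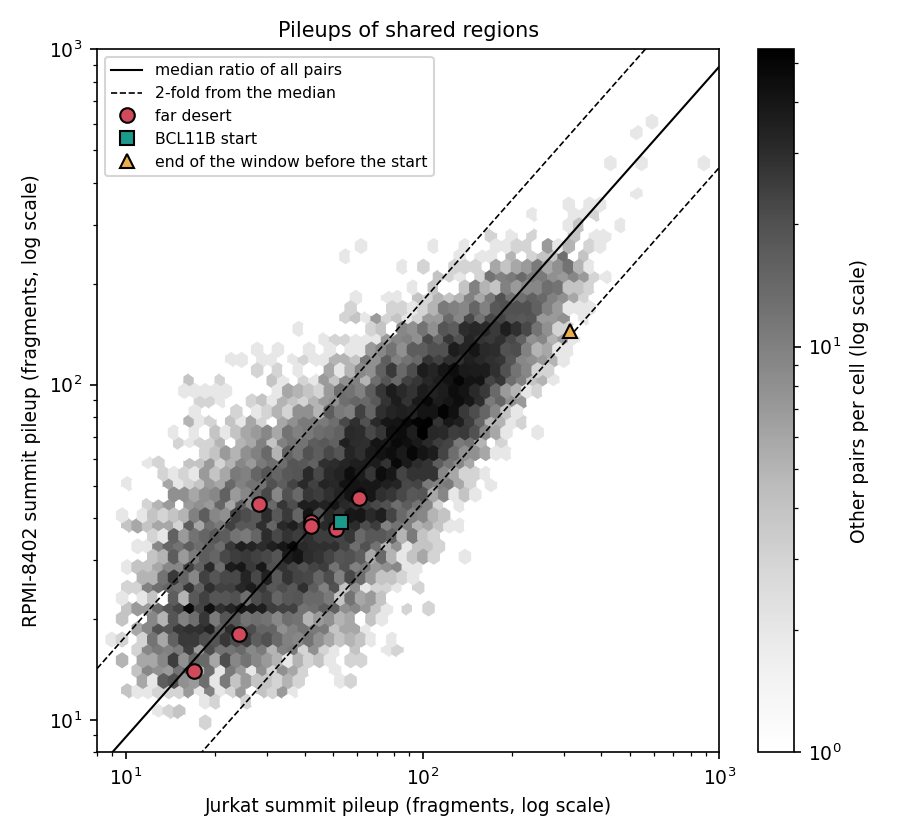
Summit pileup in RPMI-8402 against that in Jurkat, in fragments on log axes, for pairs of overlapping peaks. Grey cells count the pairs outside the window, the solid line is the median ratio of all pairs, and dashed lines lie 2-fold from it. The 9 pairs of the window lie between the dashed lines, with the peak at the window's edge (144 in RPMI-8402, 313 in Jurkat) closest to the lower one.

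**Figure D4:**
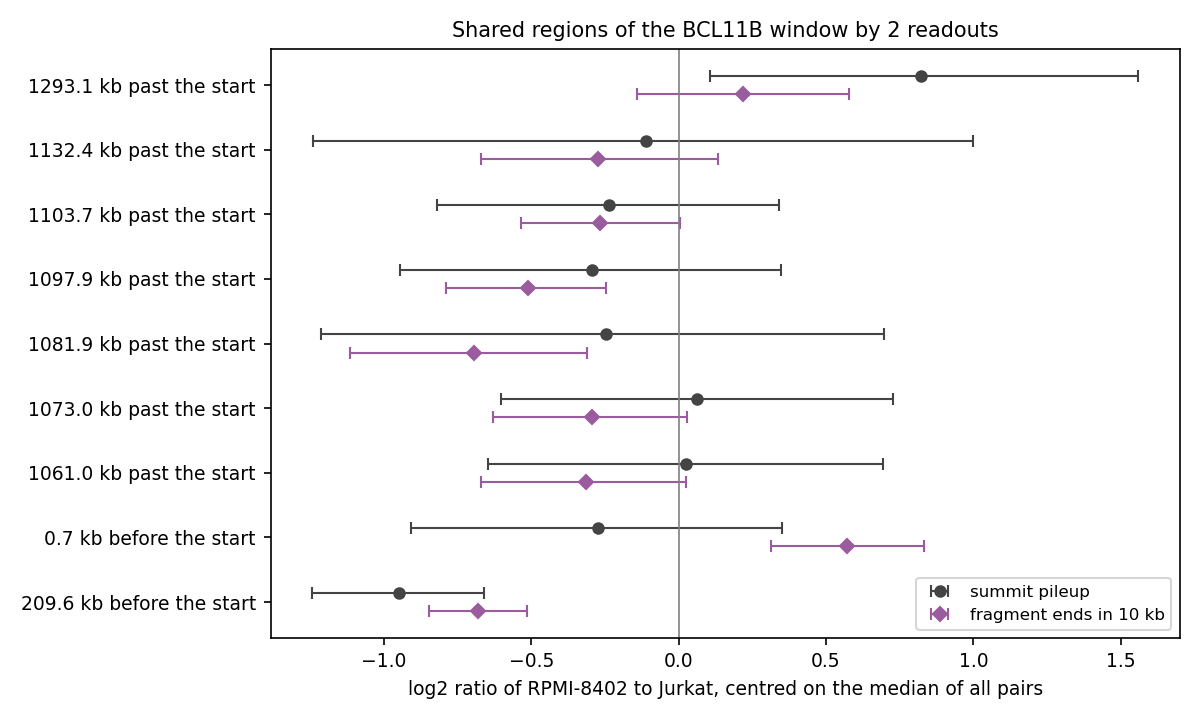
RPMI-8402 over Jurkat on a centred log2 scale for the 9 shared regions, by summit pileup (circles) and by fragment ends in 10 kb (diamonds), with 95% counting intervals. At the BCL11B start the readouts fall on opposite sides of 0 (-0.27 and 0.57), though the interval of the pileup includes 0. They also do so at 1073.0 kb (0.06 and -0.29) and 1061.0 kb (0.03 and -0.32) past the start, where every interval includes 0. At the peak 209.6 kb before the start both lie below 0 (-0.95 and -0.68). The ends include those of the peak's own fragments, and both readouts were solved from the same deposited fold and p-value.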

How the data were processed

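ATAC-seq was measured in 1 library each of RPMI-8402 and Jurkat, as paired-end reads, per the labels' protocols. The peak caller MACS2 (2.1.1.2016030), Bowtie2, SAMtools, Picard and the build hg19 appear, with no role, in the submitters' processing notes. How reads were filtered, and whether a Tn5 offset was applied, is not given in the sources used here. The authors deposited, per peak, a score, a fold enrichment, a −log10 p-value and a −log10 q-value, and called peaks per library.

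Pileup and local background were solved here from the deposited fold and p-value, taken as pileup plus 1 over background plus 1 and a Poisson upper tail. The pileups came out whole (within 0.01) in 100% of peaks of both lists. Local backgrounds under 25 fragments per base were whole multiples of 1 step in 100% of 21737 RPMI-8402 and 22329 Jurkat values above the genome-wide background (1.96 and 1.59 fragments per base), and were read as fragment ends in 10 kb with mean fragments of 309 and 261 bp. Their intervals count 1 fragment for every 2 ends. The ends include those of the peak's own fragments, so they are not independent of the pileup. In a test on simulated data pileups were recovered in 100% of 24603 RPMI-8402 and 25189 Jurkat peaks. The simulation used the same formulas as the solution, so it checks the solving step only, not whether the deposited values follow them.

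Peaks overlapping by at least 1 bp were called shared, and 1-to-1 overlaps were called pairs. Ratios are RPMI-8402 over Jurkat, centred on the median log2 ratio of all pairs, -0.17 for pileup and -0.16 for ends. Intervals are at 95%. Python 3.11.15, numpy 2.4.6, pandas 2.3.3 and scipy 1.17.1 were used. Members and lists were chosen with earlier results of these data known. Regions named were those at the gene start, the 10 highest per line, line-only peaks at a −log10 q of at least 10, pairs 2-fold apart and stitched clusters; the remaining line-only peaks were added after their values were seen. T-cell and other marker promoters were not read, as no hg19 annotation was used here.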

Additional observations from a re-analysis of the deposited data

How the results depend on the processing

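Counting only peaks at a −log10 q of at least 10 left 8 RPMI-8402 and 10 Jurkat peaks in the window, and the 10000 strongest peaks of each list left 2 and 2. At that q the gene body held 0 peaks in each line, the nearer desert 2 in Jurkat, the far desert 6 in each line, and stitching gave 0 clusters with 0 regions, as did stitching at 5 kb. Stitching gave 1 cluster of 3 regions at 12500 bp, and 5 regions at 25 kb. The median log2 ratio of the 9 pairs was -0.71 when scaled by the genome-wide background, 0.16 when centred on the pairs within 5 Mb of the window and 0.17 on the deposited fold. Pairs 2-fold higher in Jurkat numbered 1 with that background scaling and 1 unscaled, and at 1.5-fold there was 1 pair in favour of each line. At the gene start the log2 ratio was -0.74 with the background scaling, and 0.57 by fragment ends in 10 kb. The summed ratio of the desert group was 0.658 with the background scaling, where that of all pairs was 0.701. Of these alternatives, the fragment ends at the gene start and the background scaling of the desert group were not planned. The others were planned, though members and lists were chosen with earlier results of these data known. The cause was not tested where a value moved, except that stricter lists hold fewer peaks. In total 20 alternative values were counted as moved, 3 as changed in sign and 36 as neither. The 36 include values that differed from the main one but stayed within its interval. One is the -0.74 at the gene start, against -0.27 (-0.91 to 0.35), though its own ratio interval (0.385 to 0.920) lay below 1. Another is the RPMI-8402 share that overlapped, 87.5% at that q against 69.2%. The overlap definitions moved no share outside its interval. With 1 library per line there was no replicate to leave out. No paired analysis was possible because RPMI-8402 and Jurkat have 1 library each. The lowest called pileups, 10 in RPMI-8402 and 9 in Jurkat, limit what the lack of a call can show.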
